A study of Mus musculus with 46 samples.

Results

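The 44 candidate cis-regulatory elements (cCREs) described here are those on the distal flank of the Nanog locus, out of 105 Nanog-locus cCREs in the assay. They were chosen by position alone, as the fragments named with an E whose start lies at or beyond 122.76 Mb on chromosome 6 (mm10). They run from E086, which starts at 122760972, to E139, which ends at 123303928, a span of 543 kb downstream of Nanog. The last Nanog-locus cCRE outside the window, E085, starts at 122751606. The start and end of each member lie 450 bp apart.

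The activities come from a massively parallel reporter assay in E14TG2a, a line of mouse embryonic stem cells kept in 2i+LIF, a serum-free medium that holds them in the naive pluripotent state. Plasmids carried 1 or 2 fragments upstream of a barcoded reporter, and each fragment was cloned in a plus or a minus orientation. Libraries of the Klf2 and Nanog loci and a negative control library were transfected as 1 mix in 3 biological replicates, and RNA was harvested after 24 hours. All replicates received the same plasmid pool, so their spread does not cover how plasmids of 1 construct vary, and a plasmid reporter measures the fragments outside their chromosomal setting.

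An enhancer is a stretch of DNA that binds transcription factors and raises transcription from a promoter, and a reporter assay reads this as more barcode RNA per plasmid. Nanog encodes a homeodomain transcription factor of the pluripotency network, and several enhancers around it are active in embryonic stem cells. The flank studied here runs through Slc2a3, which encodes a neuronal and embryonic glucose transporter, Foxj2, a forkhead factor, C3ar1, the receptor of a complement fragment, Necap1, an endocytosis protein, and a cluster of Clec4 genes, which encode C-type lectin receptors of myeloid cells.

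Activity is the ratio of a construct's barcodes in complementary DNA to those in plasmid DNA, on a linear scale. The numbers of barcodes and reads behind each ratio were not analysed here, so the depth is unknown. The empty vector, with no fragment, had activities of 0.118, 0.0675 and 0.238 in replicates 1, 2 and 3, and marks the floor of the assay. The floor of replicate 3 was the highest of the 3. By RefSeq gene bodies, 11 members lay in Slc2a3, 7 in Foxj2, 3 in Clec4a4 and 1 each in C3ar1, Necap1, Clec4a2 and Clec4e, and 19 lay between genes. Exons and introns were not resolved here. In 4 cases neighbouring members overlapped, by 4 bp (E098 and E099), 294 bp (E100 and E101), 284 bp (E120 and E121) and 152 bp (E123 and E124), so these share sequence.

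Members were paired with the promoters of the locus, 18 fragments in all. The fragment at the Nanog transcription start (P010) and the 1 at Clec4e (P025), a receptor of mycobacterial lipids on macrophages, had the highest shares of raised pairs among promoters with at least 20 tested pairs. Their RefSeq promoter sequences of build GRCm38.p6 are shown because the results turn on these partners, as the 250 bases before the annotated start that lie inside the tested fragment, 5′ to 3′, with matches to the searched motifs in capitals. The Nanog stretch is chr6:122707239-122707488 on the plus strand and the Clec4e stretch is chr6:123289872-123290121 on the minus strand.
Nanog: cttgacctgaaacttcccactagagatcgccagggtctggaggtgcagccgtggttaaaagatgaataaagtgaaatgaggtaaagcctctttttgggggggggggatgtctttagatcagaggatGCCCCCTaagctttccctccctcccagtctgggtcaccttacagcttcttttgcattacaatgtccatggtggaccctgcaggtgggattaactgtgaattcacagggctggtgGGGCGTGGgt
Clec4e: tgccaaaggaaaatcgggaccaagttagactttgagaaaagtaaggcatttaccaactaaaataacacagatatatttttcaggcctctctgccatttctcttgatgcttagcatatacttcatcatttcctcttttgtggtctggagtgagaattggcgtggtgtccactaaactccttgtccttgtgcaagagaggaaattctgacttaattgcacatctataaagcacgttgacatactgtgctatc
The 12 motifs, searched on both strands, were ATGCAAAT (POU octamer), ACAATGG (SOX), TCAAGGTCA (ESRRB and NR5A), GGGNGTGG (KLF), TTCCNGGAA (STAT), TGANTCA (AP-1), GGGCGGG (GC box), AGGGGGC (CTCF core), CCGGAAG (ETS), TGACGTCA (CRE), CACGTG (E-box) and ACATTCC (TEAD). The Nanog stretch held the KLF motif and the CTCF core once each, at bases 241 and 127, and the matches do not overlap. These motifs occur in 15.9% and 9.43% of the 32817 RefSeq promoter stretches of the same length. The Clec4e stretch held none of the 12 motifs in these letters.

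Alone, without a second fragment, a subset of the members drove the reporter by themselves. Of 86 oriented single constructs, 20 from 12 members were more active than the median single Nanog cCRE, against 20.3% of all 202 single constructs (limma, Benjamini-Hochberg adjusted p at most 0.05). None was less active, as for all singles (0%), with 6 of the members' constructs lower at an unadjusted p under 0.05 by limma. Against the empty vector 24 of the 86 were higher, where 24.3% of all singles were. E088, E090, E098, E107, E116, E122, E134 and E136 passed in both orientations, and E102, E120, E132 and E138 in only 1 of them.

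E134, which lies 7005 bp past Clec4b2, was the most active member alone, with 2.62, 2.67 and 2.93 in the plus orientation. Turned around, it gave 0.382, 0.274 and 0.460. Its orientations did not overlap, although each exceeded the median single cCRE, by 4.40 ± 0.40 and 1.49 ± 0.29 on the log2 scale (SE, n = 3; adjusted p = 0.0114 and 0.0358). E098, between Slc2a3 and Foxj2, gave 1.88, 1.61 and 1.48 in plus and 1.54, 1.03 and 1.12 in minus. E116, which lies 1026 bp past Clec4a1, gave 1.80, 1.21 and 1.47 in plus and 1.60, 1.01 and 1.26 in minus. Both were active in either direction. Taking each member in its more active orientation, the others with a call in both orientations were lower. E122, inside Clec4a4, reached 1.62, 1.17 and 1.38 in plus, and E090, inside Slc2a3, 1.28, 1.19 and 1.36 in minus. E136, between Clec4n and Clec4d, reached 0.899, 0.812 and 0.950 in minus. E107 and E088 stood just above the floor, both in minus, with 0.358, 0.308 and 0.467 for E107 and 0.317, 0.193 and 0.390 for E088.

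Upstream of a promoter, the members' pairs were set against the promoter alone in the same orientation. The library held 565 such constructs from 39 members, of which 25 had a replicate at 0 and were left out, so 540 pairs were tested. E086, E092, E095, E099 and E112 had no construct with a promoter. Of the tested pairs, 37 from 14 members were higher than the promoter alone and 1 was lower, against 12.8% higher and 0.239% lower of all 1256 Nanog pairs. The members' share higher was 6.85%. With the replicate number as a block, 80 were higher and 13 lower, against 17.7% and 2.15% of all. Without replicate 1 no pair passed the adjustment, with 19 higher at an unadjusted p under 0.05, and without replicate 2 the count was 22. In all 37 called pairs the 3 replicates of the pair lay above the 3 of the promoter alone, and the log2 differences ran from 1.75 to 4.09. The pairs were called on these same values, so the separation describes them and adds no support. Pairs that share an oriented promoter share the same 3 baseline values.

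E116, E090, E134 and E136 held 25 of these 37 calls, from 85 of the 540 pairs. The other 455 pairs gave 12 calls from 10 members. The spread between replicates differed by promoter. Replicates of members' pairs had a median SD of 0.24 log2 units with the Nanog promoter (78 pairs) and of 1.14 with the weak promoters (439 pairs, all but P010 and the M6pr fragment P001), most of which were near the floor when alone.

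E116 had the most calls, 9 of 30 pairs, and 23 with the replicate block. With the Nanog promoter in minus, it gave 5.26, 5.63 and 4.51 where the promoter alone gave 0.451, 0.341 and 0.522, a log2 difference of 3.57 ± 0.46 (SE, n = 3; adjusted p = 0.0114). With the Nanog promoter in plus it gave 7.18, 7.02 and 6.05, where that promoter alone gave 0.789, 0.627 and 0.864. These values are for E116 in minus, and E116 in plus gave 6.68, 5.40 and 4.79 with the same promoter, so both orientations were far above the promoter. With the Clec4e promoter in plus, E116 in plus gave 0.843, 0.621 and 1.01 against 0.0900, 0.0402 and 0.205 (log2 difference 3.16 ± 0.70; adjusted p = 0.0293). Its smallest difference was with the M6pr fragment, the most active promoter alone (M6pr encodes the cation-dependent mannose 6-phosphate receptor). There the pair gave 4.95, 4.75 and 4.43 and the promoter alone 4.69, 4.51 and 3.91, a log2 difference of 0.11 ± 0.44, within the spread of the replicates.

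E090 had 8 calls among 21 pairs, 15 with the block, and 20 of the 21 had it in minus, among them all 8 called, so its orientations are hardly compared here. With the Clec4a1 fragment P017 in plus it gave 3.82, 1.45 and 1.55 against 0.121, 0.0574 and 0.250, the largest difference of any member (4.09 ± 0.73; adjusted p = 0.0153). With the Nanog promoter in plus it gave 5.47, 6.18 and 4.79 (2.85 ± 0.46; adjusted p = 0.0137). Its only pair in plus, upstream of the Clec4a1 fragment P016 in plus, gave 0.109, 0.0987 and 0.119 and the promoter alone 0.158, 0.0617 and 0.236, which overlap.

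E134 had 4 calls among 18 pairs, all in the plus orientation that was also the most active alone. With the Nanog promoter in minus it gave 4.91, 6.73 and 5.85 (log2 difference 3.74 ± 0.47; adjusted p = 0.0114). With P016 in minus it gave 0.917, 1.58 and 1.39 against 0.104, 0.0480 and 0.235 (3.58 ± 0.69; adjusted p = 0.0186). Its lowest pair, in minus with the Clec4n promoter in minus, gave 0.0901, 0.0320 and 0.251, which overlaps the promoter's 0.101, 0.0466 and 0.207. E136 had 4 calls among 16 pairs. With the Clec4e promoter in minus it gave 1.03, 1.01 and 1.03 against 0.0874, 0.0418 and 0.214 (3.48 ± 0.68; adjusted p = 0.0190), and with the Nanog promoter in plus 3.24, 3.22 and 3.40 (2.13 ± 0.45; adjusted p = 0.0255). With P017 in minus its replicates were spread from 0.0258 to 0.567, and the pair did not stand out from the promoter (-0.32 ± 1.26).

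E122 and E138 were measured with 1 promoter fragment only, P016. E122 in plus gave 0.751, 0.605 and 1.57 against 0.104, 0.0480 and 0.235 (3.08 ± 0.74; adjusted p = 0.0381), and this was its only pair. E138, 3884 bp past Clec4e, gave 0.826, 0.552 and 0.901 with the same promoter (2.82 ± 0.69; adjusted p = 0.0398). With P016 in plus, E138 gave 1.12, 0.501 and 0.534 against 0.158, 0.0617 and 0.236, which passed only with the block (adjusted p = 0.0786 without and 0.0228 with it). E098, among the most active members alone, had a single pair, with P016 in plus, of 0.0756, 0.134 and 0.371, which overlaps the 0.158, 0.0617 and 0.236 of the promoter alone (0.23 ± 0.80).

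The Nanog promoter gave 18 of the 37 higher calls, from 78 of the pairs, and its pairs had a median log2 difference of 0.38. Calls by promoter were not counted over all Nanog cCREs, so no such count here is shown to be particular to the members. The Clec4e promoter gave 5 of 29. The Clec4n promoter gave 0 of 90 by limma with adjustment, with 7 at an unadjusted p under 0.05 and 7 with the block, and the M6pr fragment gave 0 of 23, with 1 higher and 2 lower at an unadjusted p under 0.05. Of the 33 members tested with the Nanog promoter, 11 had a higher call with it. Of these, 7 had none with another promoter (E088, E096, E107, E113, E114, E121 and E137). With the block this list shortens, since E088 was also called with the Apobec1 and C3ar1 promoters in minus (adjusted p = 0.0384 and 0.0197) and E121 with P004 in minus (0.0290). A missing call with another promoter does not show a smaller difference there. Replicates spread more with the weak promoters (median SD of 1.14 log2 units against 0.24 with the Nanog promoter). E113 was tested with 3 promoter fragments only, in 6 pairs. E120 was called with the Apobec1 promoter in minus and, without the block, not with the Nanog promoter. On the Apobec1 promoter it gave 0.634, 0.732 and 0.745 against 0.124, 0.0581 and 0.255.

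These 7 members raised the Nanog promoter in at least 1 orientation, and only E088 and E107 among them passed the test alone. E137, which lies inside Clec4e and ends at 123289777, just before the Clec4e promoter fragment starts at 123289795, gave 2.64, 3.43 and 3.01 in minus and 1.99, 1.83 and 1.32 in plus with the Nanog promoter in minus, against 0.451, 0.341 and 0.522 for the promoter alone. E096, inside Slc2a3, gave 3.80, 2.95 and 3.15 in plus with the Nanog promoter in plus. In minus E096 gave 0.935, 0.633 and 0.749 with the same promoter, which overlaps the promoter's 0.789, 0.627 and 0.864 alone. E114, 2610 bp before Clec4a1, gave 2.53, 1.83 and 2.51 in plus and 2.24, 2.16 and 1.33 in minus with the Nanog promoter in minus. Apart from those of E096 in minus, none of these replicates overlaps the promoter alone. E113 gave 2.08, 2.55 and 1.64 in minus, E121 gave 1.67, 1.96 and 1.77 in minus and E088 gave 1.72, 1.71 and 1.95 in minus with the same promoter. E107, 131 bp past Foxj2, was nearest to the threshold, with 2.59, 2.73 and 2.31 on the Nanog promoter in plus (1.75 ± 0.45; adjusted p = 0.0488).

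The boost index puts pairs with different promoters on 1 scale. It is the log2 activity of a pair minus that of the median cCRE construct with the same oriented promoter. The mean index of a member is taken within each replicate over its pairs, and the mean of the 3 replicate values is given. Of the members, 35 had at least 3 promoter fragments, and 4 of these had a mean index above 0 (E090, E116, E134 and E136) and 4 below 0 (E105, E110, E117 and E133), against 11.7% and 10.4% of all 77 Nanog cCREs. The replicate means of E090 were 2.10, 3.09 and 1.41 (mean 2.20 ± 0.84 SD, n = 3; adjusted p = 0.0112), and those of E116 were 2.10, 2.63 and 1.26 (2.00 ± 0.69; adjusted p = 0.0108). E136 had 1.23, 2.57 and 1.27, and E134 1.19, 1.99 and 1.04. All 30 pairs of E116, all 21 of E090 and all 18 of E134 had an index above 0, and so did 15 of the 16 of E136. E120, E113, E106 and E088 came next, at 0.65, 0.65, 0.58 and 0.57, and missed the threshold (adjusted p = 0.0504, 0.0715, 0.0594 and 0.0504). Without replicate 1 or without replicate 3 none of the 8 passed, with 8 and 15 members at an unadjusted p under 0.05 by limma. When the median over pairs was taken, 3 members were above 0 and none below by limma, with 7 below at an unadjusted p under 0.05.

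The index with the Nanog promoter was then compared with the mean over pairs with the other promoters, within each replicate, for 30 members that had both and at least 3 other promoter fragments. This comparison was chosen after the values were seen. In 11 members the index was higher with the Nanog promoter and in 7 lower, against 32.3% and 27.7% of all 65 cCREs compared. Without replicate 3 these counts fell to 3 and 3. E137 differed most, with 2.15, 2.22 and 1.59 on the Nanog promoter and -0.03, -0.81 and -0.35 on the others (difference 2.38 ± 0.57 SD, n = 3; adjusted p = 0.00129). E114 followed, with 1.45, 1.29 and 0.98 against -0.16, -0.50 and -0.07. For both, the index on the other promoters was below 0 in each replicate. E090, E134 and E136 had no detectable difference, with 0.57 ± 0.64, 0.40 ± 0.40 and 0.33 ± 0.80, so their index on the other promoters was not shown to be lower. At the other end, E110 had -3.18, -2.99 and -1.53 on the Nanog promoter and -0.33, -1.14 and -0.17 on the others, and E117 had -2.17, -3.01 and -1.42 against -0.08, -0.80 and -0.40. Most of the other promoters were near the floor alone, where a lower value cannot be read, and the part of this in the differences was not tested.

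At the low end, 1 member passed the test. E133, which lies 6108 bp past Clec4b2, gave 0.181, 0.219 and 0.235 in minus with the Nanog promoter in plus, where the promoter alone gave 0.789, 0.627 and 0.864. The groups did not overlap, and the log2 difference of -1.84 ± 0.46 was the only lower call among the members (adjusted p = 0.0423). With the block, E133 had 4 lower calls among 18 pairs. E110, between C3ar1 and Necap1, gave 0.0355, 0.0402 and 0.232 in plus with the Nanog promoter in minus, at the level of the empty vector (-2.64 ± 0.81; adjusted p = 0.0927, and 0.0285 with the block). E117, 1896 bp past Clec4a1, gave 0.278, 0.102 and 0.268 in plus with the Nanog promoter in plus (-1.94 ± 0.58; adjusted p = 0.0851, and 0.0165 with the block). E105, inside Foxj2, had an index below 0 in all 7 of its pairs, from -1.14 to -0.33, and no pair that passed against the promoter alone, with 1 called lower with the block, on the M6pr fragment in plus (2.14, 2.13 and 1.98 against 4.69, 4.51 and 3.91; adjusted p = 0.0461).

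Plus and minus orientations of a member could be compared on the same oriented promoter in 128 cases. By limma 1 passed, in which plus was the higher, and none passed with minus higher, against 0.283% and 0.283% of all 353 Nanog cases. At an unadjusted p under 0.05 there were 10 and 2, and with the replicate block 4 and 1. The called case was E134 with the Nanog promoter in minus. In plus it gave 4.91, 6.73 and 5.85 and in minus 0.852, 0.974 and 0.984, a log2 difference of 2.63 ± 0.28 (SE, n = 3; 95% interval half-width 0.69; adjusted p = 0.0420), and leaving out any 1 replicate ended the call. E134 was higher in plus on P016 in minus and in plus as well (2.11 ± 0.39 and 3.10 ± 0.67; adjusted p = 0.104 and 0.134, and 0.0950 and 0.0474 with the block). For E096 with the Nanog promoter in plus, plus gave 3.80, 2.95 and 3.15 and minus 0.935, 0.633 and 0.749 (2.11 ± 0.30; adjusted p = 0.0598, and 0.0474 with the block). E090 on P016 in plus went the other way, with 0.109, 0.0987 and 0.119 in plus and 0.389, 0.479 and 0.662 in minus (-2.20 ± 0.32; adjusted p = 0.0598, and 0.0474 with the block).

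In constructs of 2 cCREs the members took the place of either fragment. A member stood in the first position, farther from the reporter, in 4638 of 10536 Nanog constructs and in the second in 4677, and both were members in 2033. Of 4476 tested constructs with a member first, 298 were more active than the second cCRE alone and 54 less active, against 10.5% and 0.877% of all 10147. With the replicate block the counts were 533 and 113, against 14.2% and 2.39%. Without replicate 1 none passed by limma, with 254 at an unadjusted p under 0.05, without replicate 2 there were 48 and 2, and without replicate 3 there were 187 and 21. E116, E090, E134 and E136 held 250 of the 298 higher calls, and E133 and E110 held 39 of the 54 lower ones.

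The mean effect of each member was taken against the median construct with the same partner. In the first position 11 of 41 members were above 0 and 6 below, against 22.6% and 28% of 93 cCREs, and in the second 14 of 42 were above and 12 below, against 26.8% and 29.9% of 97. With a median over partners in place of the mean, the first position gave 5 and 0, with 9 below at an unadjusted p under 0.05 by limma. Without replicate 1 the first position gave 8 and 1 and the second gave 9 and 0, with 3 below in the second at an unadjusted p under 0.05. E090 had 2.19, 3.12 and 1.64 in the first position (2.31 ± 0.75 SD, n = 3; adjusted p = 0.0105), E122 had 2.24, 2.92 and 1.72 over 6 partners, and E116 had 2.30, 2.77 and 1.48. E138 had 1.96, 2.52 and 1.54 over 11 partners. E090 and E116 were therefore high with cCREs as well as with promoters. E122 and E138 had been paired with only 1 promoter fragment, so this was not shown for them. E134 differed by place, with 1.34 ± 0.55 in the first position and 2.99 ± 0.76 in the second, and E098 had 0.21 ± 0.28 and 2.53 ± 0.63 with 12 and 6 partners. The difference between positions was not tested.

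The most active member pair was E116 in plus before E090 in minus, with 8.15, 7.25 and 6.09. Alone, these 2 fragments gave 1.80, 1.21 and 1.47 and 1.28, 1.19 and 1.36. The pair was 2.75, 3.11 and 2.35 times the sum of the singles less the empty vector. E136 before E090, both in minus, gave 5.73, 5.92 and 5.85, or 2.78, 3.05 and 2.82 times the sum. E090 in plus before E088 in plus gave 4.20, 4.00 and 3.34, which was 3.92, 4.25 and 2.73 times the sum and the highest such ratio by geometric mean among pairs of members called alone. Such excess was not general. Of 137 constructs in which both members were called alone, 57 lay above the sum in all 3 replicates and 53 below it, and the median ratio was 1.00, 1.07 and 0.974. Among all Nanog cCRE pairs of that kind the counts were 237 and 204 of 536. Where the first member was called alone and the second was not, 302 of 416 lay below the sum and 43 above. In the reverse arrangement 228 of 404 lay below and 81 above, and with neither called 243 of 1012 lay below and 179 above. Pairs with 1 of the 2 called were not counted over all Nanog cCREs.

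The order of 2 members could be compared in 392 cases with the same orientations. Over these the log2 activities of the 2 orders correlated with r = 0.84 (Spearman's rho = 0.77), as a description of fragments that share a library and an assay floor, and the median size of the difference was 0.57 log2 units. E090 in minus before E116 in plus gave 4.24, 4.30 and 3.51, less than the 8.15, 7.25 and 6.09 of the reverse order, and the replicates did not overlap. E090 in minus before E136 in minus gave 2.35, 1.66 and 1.62, against 5.73, 5.92 and 5.85 in the reverse order. E088 and E090, both in minus, showed little dependence on order, with 3.12, 3.10 and 3.08 for E088 first and 2.97, 2.88 and 2.81 for E090 first. No test of order was run.

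E133 lowered active cCREs placed after it. Before second cCREs with an activity alone above 1, all 17 of its constructs were called lower, with log2 differences from -3.20 to -1.79. These 17 held only 6 different second cCREs. Over all Nanog cCREs 57 of 1049 constructs with a second cCRE above 1 were called lower. Before second cCREs from 0.3 to 1, 7 of 21 were called lower, and all 21 were below 0. Over all Nanog cCREs 32 of 1177 such constructs were called lower, and 735 were below 0. Before second cCREs under 0.3, none of 136 was called lower by limma, and at an unadjusted p under 0.05 there were 0 lower and 1 higher. Near the floor this held for all Nanog cCREs, with 0 of 7921 called lower and 13 lower at an unadjusted p under 0.05. With E134 in plus as the second fragment, E133 in plus gave 0.155, 0.463 and 0.592, where E134 alone gave 2.62, 2.67 and 2.93 (-2.97 ± 0.57; adjusted p = 0.025). E133 in minus before E116 in plus gave 0.177, 0.148 and 0.263, where E116 alone gave 1.80, 1.21 and 1.47 (-2.95 ± 0.38; adjusted p = 0.011). The second of these pairs stood near the floor, and the first stood above it in replicates 2 and 3. E110 was similar, with 12 of 14 constructs called lower before second cCREs above 1, from -2.69 to -1.14, over 5 different second cCREs. With E134 in plus as the second fragment, E110 in plus gave 0.390, 0.313 and 0.622 (-2.69 ± 0.38; adjusted p = 0.012).

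Members that lay side by side could differ widely. E133 and E134 are 447 bp apart, and E116 and E117 are 420 bp apart, so 2 of the most active fragments have 2 of the lowest mean indices as neighbours. E090 and E091, 197 bp apart, had mean indices of 2.20 and -0.53, and E122 is 162 bp from E123, which had -0.48. E120 and E121, which share 284 bp, were closer, with 0.65 and 0.39 over promoters and 0.62 and 0.58 in the first position.

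Across members the readouts ran together. The mean index over promoters correlated with the effect in the first position with r = 0.97 over 35 members (Spearman's rho = 0.92) and with the activity alone with r = 0.89 (rho = 0.73). Activity alone correlated with the effect in the second position with r = 0.96 over 42 members and in the first with r = 0.83 over 41. Activities alone in plus and minus correlated with r = 0.85 over 42. These are descriptions over fragments that share library, replicates and assay floor.

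The 24 members with promoter constructs but no called pair contributed 299 pairs, of which 4 were higher and 8 lower at an unadjusted p under 0.05, and 3 and 9 were called with the block. Of these members 22 had at least 3 promoter fragments, and 18 of the 22 had a mean index below 0. E106, inside Foxj2, had the highest, at 0.58 over 14 pairs. E111, inside Necap1, and E118, past Clec4a1, were measured with 16 promoter fragments each, in 53 and 48 pairs, and had mean indices of -0.31 and -0.44. E102 alone gave 0.314, 0.438 and 0.470 in plus and 0.235, 0.132 and 0.377 in minus. Only minus, the lower, passed by limma (adjusted p = 0.0763 in plus and 0.0412 in minus). Relative to the median single cCRE of each replicate, plus stood at 1.63 ± 0.43 and minus at 0.81 ± 0.17 log2 units (SE, n = 3). E102 had an effect of 0.88 ± 0.23 in the second position, with a mean index of -0.07 over 14 pairs with promoters.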

How the data were processed

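Activities of single fragments and pairs of the Nanog locus were used as deposited by the authors, as a linear ratio of barcodes in cDNA over those in pDNA for each biological replicate, per the file headers and the labels' protocols. The mix had 3 cDNA samples and 2 pDNA samples, so not every replicate had a pDNA sample of its own. Bowtie2 and mm10 are named in the submitters' processing notes, and how barcodes were counted, filtered and scaled is not given in the sources used here. Log2 activities were fitted with limma 3.58.1 (lmFit and eBayes, R 4.3.3) over all Nanog features, with Benjamini-Hochberg adjustment at 0.05 (Python 3.11.15, numpy 2.4.6, pandas 2.3.3). A construct listed at 0 in any replicate was not tested. A pair and its baseline with the same replicate number come from 1 transfection, and their deviations correlated with 0.75 over cCRE-promoter pairs (0.04, 0.39 and 0.49 within replicates 1 to 3), so counts with the replicate number as a block are given where they move a count by over 1.5 times. Means over promoters or partners needed at least 3 of them.

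Members and lists were chosen with earlier results of these data known. Described in full were members with a called promoter pair, the 5 highest and 3 lowest mean boost indices and the 3 most active alone, most with their highest and lowest pair; other pairs are examples chosen after their values were seen. The tests were tested on simulated data, in which pairs kept the replicate pattern of their baseline. Of log2 changes of 2 and 4 in size, the cCRE-promoter test recovered 2.1% and 63.8%, and the cCRE-cCRE test 0% and 15.6%. With the block these shares were 69.5% and 88.6%, and 20.9% and 52.2%. A pair without a call is therefore not shown to be unchanged. False calls were more frequent than the threshold allows in the alone-activity test and slightly so in the boost index test. The motif search planned for the members' sequences was not run, as these were not analysed here, and was made on promoter sequences instead. Alternatives were the block, a pseudocount of 0.01 with zeros kept, a trend in the prior variance, other baselines and averages, and leaving out each replicate.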

Additional observations from a re-analysis of the deposited data

Results flagged for a closer look

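E134 on the Nanog promoter in minus differed between its orientations, by 2.63 log2 units (plus minus minus, limma, adjusted p = 0.0420; plus higher in 3 of 3 replicates). The cause was not tested.

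The mean boost index on the Nanog promoter differed from that on the other promoters in 18 members (limma, adjusted over 65 cCREs, a comparison chosen after the values were seen). It was higher by 2.38 for E137, 1.48 for E114, 1.26 for E107, 1.25 for E121, 1.23 for E101, 1.12 for E116, 1.03 for E088, 0.98 for E096, 0.97 for E132, 0.84 for E094 and 0.70 for E111. The difference was -0.62 for E104, -0.82 for E130, -0.86 for E091, -0.87 for E123, -1.55 for E133, -1.77 for E117 and -2.02 for E110. All 3 replicates had the same sign in each of the 18.

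Constructs with a promoter in the first position and a member in the second were not part of the comparisons. The most active, the Nanog promoter in plus before E116 in plus, gave 8.28, 8.45 and 7.38 in replicates 1 to 3, above the empty vector and above either fragment alone in each replicate.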

How the results depend on the processing

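Depth is unknown, and the floor of the assay limits what can be read as lower. None of 128 single results changed sign under the alternatives, but all 128 had been called, and calls of single cCRE-cCRE pairs were not among them. In 181 of 771 comparisons the result no longer passed, among them 148 of the 384 that left out a replicate.

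With the replicate number as a replicate block, cCRE-promoter pairs gave 80 higher and 13 lower, cCRE-cCRE pairs 533 and 113 and orientation 4 and 1. Over all Nanog features the shares were 17.7% and 2.15%, 14.2% and 2.39%, and 1.13% and 0.850%. A trend in the prior variance gave 76 and 19, 636 and 196, and 11 and 2. The shares over all were then 17.9% and 3.58%, 16.8% and 4.43%, and 10.5% and 6.52%. Lower cCRE-promoter calls were 4 against the median construct and 7 with Klf2 and Nanog pairs adjusted together (0.478% and 1.11% of all Nanog pairs). Lower cCRE-cCRE calls were 36 against the median construct (0.512% of all Nanog pairs). Mean indices below 0 numbered 0 with a median over pairs, 1 with at least 6 promoter fragments and 9 with zeros kept, and 6 were above 0 with at least 10 pairs per oriented promoter. Over all Nanog cCREs these shares were 1.30%, 2.33%, 25.3% and 14.3%. Mean effects in the first position were above 0 in 5 and below 0 in 0 members with a median over partners, and below 0 in the second in 8. The shares over all Nanog cCREs were 10.8%, 0% and 19.6%. Centring single cCREs on their mean instead of their median made 32 of 86 lower, against 0. With the mean, 47.0% of all 202 singles were lower.

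Leaving out 1 replicate gave 0 to 29 higher and 0 to 1 lower cCRE-promoter pairs, 0 to 187 and 0 to 21 cCRE-cCRE pairs, 0 orientation cases, 0 to 4 and 0 to 2 mean indices, 8 to 11 and 1 to 7 first-position effects, 9 to 15 and 0 to 11 second-position effects, 17 to 26 and 0 to 4 single constructs, and 3 to 15 and 3 to 7 Nanog-promoter differences. Causes were not tested. Settings with an empty vector baseline for singles, at least 10 pairs, and the Nanog-promoter difference were chosen after seeing the data.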

Other observations

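The library also held 661 constructs with a promoter before a member, 650 of them with no replicate at 0, from 39 members. In 59 of the 650 all 3 replicates lay above every replicate of both fragments alone. This was not counted over all Nanog constructs of the kind, so it is not shown to be particular to the members. The Nanog promoter in plus before E134 in plus gave 6.39, 7.34 and 6.31, and before E090 in minus 6.50, 6.64 and 6.03. E138, which had 1 promoter fragment as a partner in the other order, gave 5.51, 6.36 and 5.31 in plus after the Nanog promoter, where E138 alone gave 0.674, 0.480 and 0.663. In 263 cases the same oriented member and promoter were measured in both orders, and the log2 activities correlated with r = 0.82 (Spearman's rho = 0.72), given as a description.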
